A study of Mus musculus with 5 samples.

Results

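Hoxa5, Hoxa7, Hoxa9, Hoxa10, Hoxb3, Hoxb4, Hoxb5, Meis1 and Pbx3 encode homeodomain transcription factors of blood stem and progenitor cells. Their expression was followed in marrow cells of mice carrying an inducible MSI2 transgene. Every probe set (a group of short array probes read as 1 signal) whose annotation gives exactly 1 gene symbol, and that 1 of these, was taken. This gave 17 of the 45101 probe sets of the array and 9 of the 18193 genes with a named probe set. Hoxa7 and Hoxb5 had 1 probe set each, Meis1 had 3, and the other genes had 2. For each gene the probe set with the highest mean leads, and the remaining ones are described beside it.

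The labels describe 3 arrays from control rtTA mice and 2 from MSI2-inducible mice, all C57BL/6, with RNA from sorted bone marrow cells. rtTA is the doxycycline-dependent activator used to switch on inducible transgenes, and MSI2 is the RNA-binding protein Musashi 2. The promoter behind either transgene, the animals' age, and whether or for how long doxycycline was given are not stated in the labels. Neither is it stated whether MSI2-inducible mice also carried rtTA, or whether each array of a group stands for another mouse. The p-values therefore measure only the spread among the 5 arrays, which may be technical. The cells were sorted as LineageLow and Kit+, and the sample labels add Sca1+ (LSK) where the series title and design give LK, Sca1-. These populations differ in stem cell content.

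Hox genes lie in clusters, and their proteins bind DNA together with TALE homeodomain proteins, of which Meis1 and the Pbx proteins are the partners in blood cells. Genes toward the middle of the A and B clusters are active in blood stem cells and are turned down as cells differentiate. Trithorax proteins such as MLL keep the clusters open and Polycomb proteins close them. Hoxa9 with Meis1 is a potent leukaemia-driving pair, and Pbx3 is a further partner in that setting.

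Values are log2 intensities, differences are MSI2-inducible minus control, and tests are limma's, adjusted by Benjamini-Hochberg over all genes. The Pearson correlation over genes between arrays ran from 0.965 to 0.989. MSI2-inducible replicate 1 stood apart on the first principal component (41.8% of the variance), with a score of 56.5 against -37.3 to -2.87 in the other arrays. Of the positive gate markers, Kit, the stem cell factor receptor, read 8.80 to 9.66 over the 5 arrays, and Ly6a, which encodes Sca1, was not analysed here. Of 7 measured lineage surface genes, 4 had means below 5.57, the median over all probe sets, although Itgam, the myeloid integrin CD11b, was at 8.23 in MSI2-inducible replicate 1 against 4.93 to 5.58 elsewhere.

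None of the 9 genes passed the test in either direction, where 0.022% of all genes did (0.0165% higher and 0.0055% lower in MSI2-inducible cells). Their leading probe sets were higher in MSI2-inducible cells for 5 genes and lower for 4, with a median difference of 0.0046 against 0.0019 over all genes. Differences ran from -0.57 (Hoxb5) to 0.41 (Hoxb3), and the lowest limma adjusted p was 0.903. An unadjusted limma p under 0.05 was reached by 0 of the 9 leading probe sets, where 5.64% of all genes had one. Control and MSI2-inducible arrays were fully apart for 1 gene, Hoxb3, which is 11.1% of the 9 genes against 18.7% of all genes (9.27% higher and 9.39% lower in MSI2-inducible cells). In 5 leading probe sets the 95% limma interval of the difference lay within 1 log2 unit (2-fold) on both sides. These were the leading probe sets of Hoxa7, Hoxa9, Hoxb3, Hoxb4 and Meis1. In those of Hoxa5, Hoxa10, Hoxb5 and Pbx3 it reached beyond, so they do not place the difference within 2-fold. Of the 8 other probe sets, 3 had an interval within that bound. Those that reached beyond it included sets of Hoxb3, Hoxb4 and Meis1, so the bound does not hold for every reading of these genes.

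**Figure D1:**
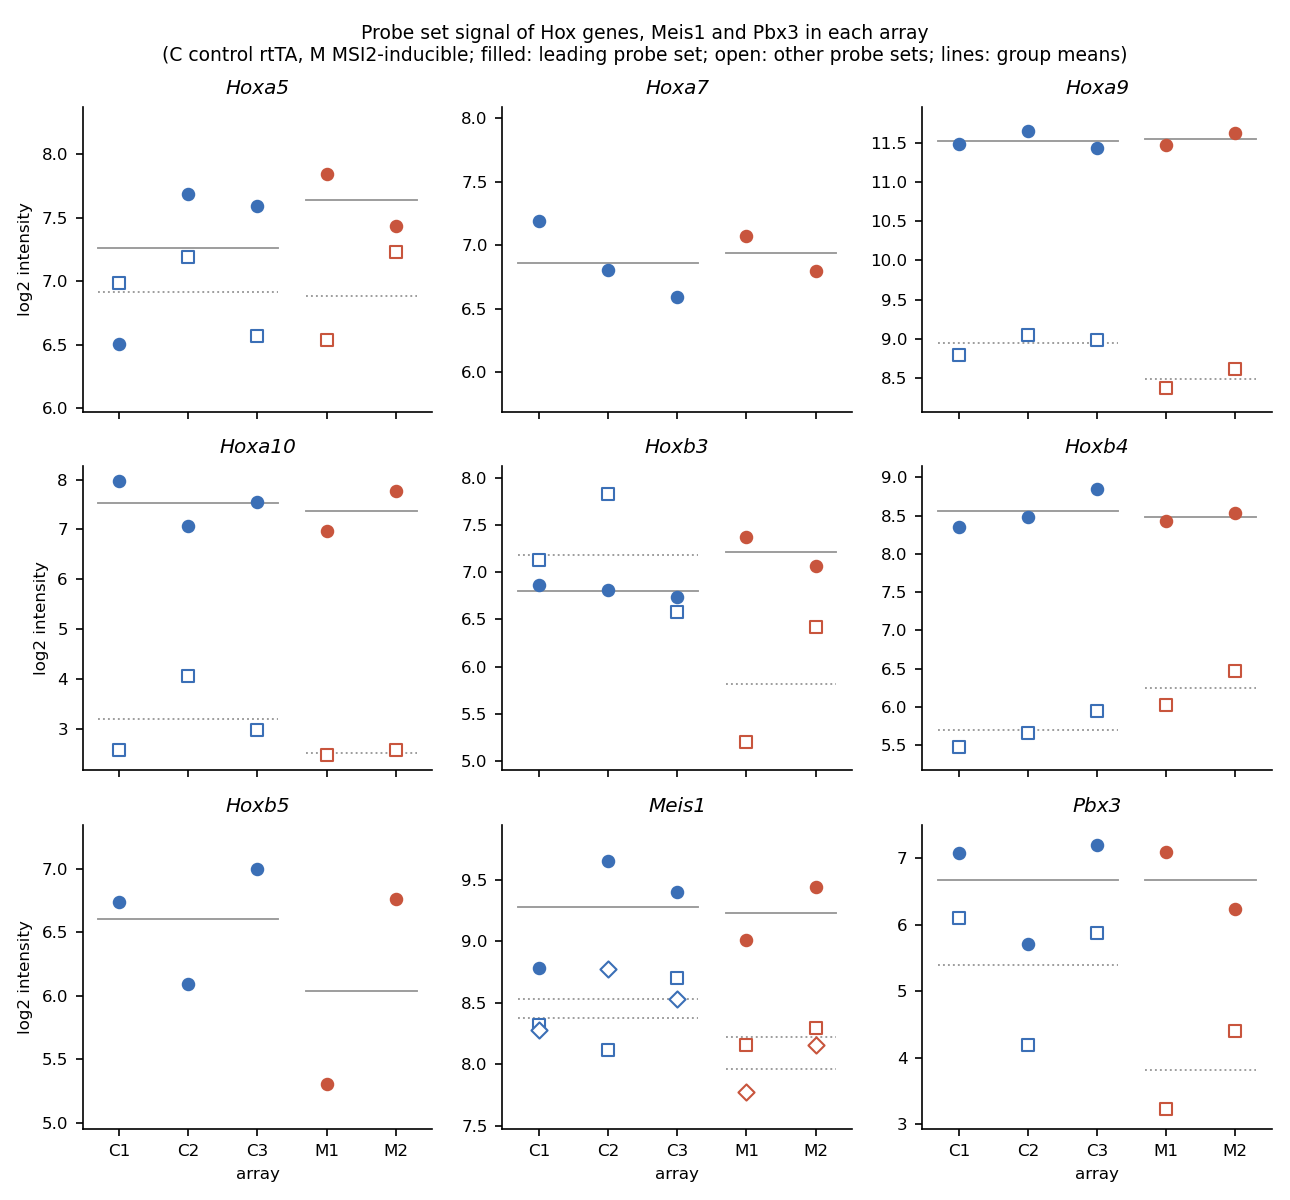
Log2 intensity (vertical axis) of each probe set in the 3 control rtTA (C1 to C3, blue) and 2 MSI2-inducible arrays (M1, M2, red), 1 panel per gene. Filled circles are leading probe sets, open squares and diamonds the others, and lines are group means. The leading Hoxa9 probe set lay between 11.42 and 11.65 in all 5 arrays, while Hoxb5 was at 5.30 in M1.

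The start regions of Hoxa9, Hoxb4 and Meis1 are shown because 1 gene of each cluster and the main partner carry the results that follow: in all 3 the leading probe set overlapped between the groups and another probe set did not. The sequences are the 250 bases before the annotated start in RefSeq (GRCm38.p6), on the gene's strand: chr6:52227371-52227620 (minus strand) for Hoxa9, chr11:96318017-96318266 (plus strand) for Hoxb4 and chr11:19018970-19019219 (minus strand) for Meis1. Capitals mark TAAT, the core that many homeodomains bind, read on both strands.
Hoxa9: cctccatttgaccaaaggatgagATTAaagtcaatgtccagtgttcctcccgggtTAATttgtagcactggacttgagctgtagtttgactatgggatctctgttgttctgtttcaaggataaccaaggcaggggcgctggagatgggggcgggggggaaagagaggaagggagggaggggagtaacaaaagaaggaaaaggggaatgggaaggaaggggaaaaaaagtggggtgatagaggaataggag
Hoxb4: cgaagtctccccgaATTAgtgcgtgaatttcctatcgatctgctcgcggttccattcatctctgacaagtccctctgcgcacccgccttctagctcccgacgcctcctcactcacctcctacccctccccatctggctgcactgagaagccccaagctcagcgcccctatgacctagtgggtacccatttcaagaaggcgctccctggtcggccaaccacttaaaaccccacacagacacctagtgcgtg
Meis1: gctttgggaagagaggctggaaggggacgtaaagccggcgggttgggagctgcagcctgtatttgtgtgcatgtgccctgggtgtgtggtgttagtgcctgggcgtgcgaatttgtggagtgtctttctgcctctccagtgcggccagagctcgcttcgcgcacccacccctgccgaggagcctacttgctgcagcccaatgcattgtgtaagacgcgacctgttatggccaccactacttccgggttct
TAAT occurred 2 times in the Hoxa9 window, 1 time in that of Hoxb4 and 0 times in that of Meis1, and in 54.9% of 32851 windows of the same length. A joint Hox and Pbx motif (TGATNNAT, both strands, 7.68% of windows) and the Meis motif (TGACAG, both strands, 15.9%) were in 0 of the 7 windows listed for 5 Hox genes and Meis1. A match or its lack is a property of these letters only. The guanine and cytosine content was 49.6%, 58.0% and 59.6% in the order printed.

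In the A cluster, Hoxa9, the cluster gene most tied to myeloid progenitors and leukaemia, had the narrowest range of the 9 leading probe sets. Its leading probe set read 11.48, 11.65 and 11.42 in control replicates 1, 2 and 3 and 11.47 and 11.62 in MSI2-inducible replicates 1 and 2. Both MSI2-inducible values lay inside the control range. The difference was 0.03 (SE 0.17, 95% limma interval -0.40 to 0.45, adjusted p 0.994), and the interval equals 0.758-fold to 1.37-fold. Its control SD of 0.12 (n = 3) was larger than that of 44.7% of the 577 genes within 0.5 log2 units of its level. The second Hoxa9 probe set read 8.80, 9.05 and 8.98 in control and 8.37 and 8.61 in MSI2-inducible arrays, so both MSI2-inducible arrays were below every control array. It differed by -0.45 (95% limma interval -0.92 to 0.02, adjusted p over all probe sets 0.872).

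Hoxa10, a neighbour of Hoxa9 that acts in progenitor proliferation, varied more. It read 7.98, 7.07 and 7.54 in the control arrays and 6.96 and 7.77 in the MSI2-inducible arrays. The MSI2-inducible arrays lay at opposite ends of the control range, replicate 1 just below it. The difference was -0.17 (95% limma interval -1.05 to 0.71, adjusted p 0.978). Its second probe set, with a mean of 2.94, was too weak for the size of its difference (-0.68) to be relied on.

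Hoxa7, which like Hoxa9 is a recurrent target of MLL fusions, read 7.19, 6.81 and 6.59 in control and 7.08 and 6.80 in MSI2-inducible arrays, all within the control range. The difference was 0.07 (95% limma interval -0.51 to 0.65, adjusted p 0.983). Hoxa5, which has been tied to lineage choice of progenitors, read 6.50, 7.69 and 7.60 in control and 7.85 and 7.44 in MSI2-inducible arrays. Control replicate 1 alone was low there. The difference was 0.38 (95% limma interval -0.60 to 1.36, adjusted p 0.946), and it was -0.0015 without control replicate 1. The leading Hoxa5 probe set carries the suffix _x_at, which marks probes that can also bind other transcripts. The second Hoxa5 probe set read 6.99, 7.19 and 6.57 in control and 6.53 and 7.23 in MSI2-inducible arrays, a difference of -0.04. Control replicate 1 was not low in it.

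In the B cluster, Hoxb4, known for expanding blood stem cells when overexpressed, had overlapping groups in its leading probe set. It read 8.35, 8.48 and 8.85 in control and 8.43 and 8.53 in MSI2-inducible arrays, a difference of -0.08 (95% limma interval -0.59 to 0.44, adjusted p 0.982). Both MSI2-inducible values lay inside the control range. The second Hoxb4 probe set read 5.47, 5.67 and 5.95 in control and 6.03 and 6.46 in MSI2-inducible arrays, both above every control array, with a difference of 0.55 (95% limma interval -0.04 to 1.15, adjusted p over all probe sets 0.877).

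Hoxb5, a gene of long-term stem cells in mouse marrow, had the widest range of the 9 leading probe sets. It read 6.73, 6.09 and 6.99 in control arrays and 5.30 and 6.76 in MSI2-inducible replicates 1 and 2. Replicate 1 alone lay below the control arrays, and replicate 2 was within their range. The difference of -0.57 (95% limma interval -1.77 to 0.62, adjusted p 0.930) became 0.16 without MSI2-inducible replicate 1 and -1.30 without replicate 2. The same array was lowest for another stem cell gene, Slamf1, a receptor of long-term stem cells. Slamf1 read 5.57 there, 7.22 in MSI2-inducible replicate 2 and 7.36 to 7.99 in control arrays. Unlike Hoxb5 it was thus below every control array in both, as were 9.39% of all genes. Of 15 measured gate and stem cell genes 11 were lower in MSI2-inducible cells, among them Vwf (-0.95), and 4 higher, among them Ctnnal1 (0.87). Over the 15 genes the median deviation from the control mean was -0.47 in MSI2-inducible replicate 1 and 0.10 in replicate 2, against -0.19 to 0.08 in control arrays. The part of that array's cell makeup in the Hoxb5 value was not tested, and fewer cells of a type and less RNA per cell cannot be told apart in bulk samples.

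Hoxb3, the cluster neighbour whose annotated span holds Hoxb4, was the 1 gene whose leading probe set separated the groups. It read 6.87, 6.81 and 6.74 in control and 7.37 and 7.06 in MSI2-inducible arrays, with a control SD of 0.07 that only 4.16% of 1948 genes of like level undercut. Both MSI2-inducible arrays were above every control array. The difference was 0.41 (SE 0.18, 95% limma interval -0.03 to 0.86, adjusted p 0.903). The second Hoxb3 probe set went the opposite way. It read 7.13, 7.83 and 6.58 in control and 5.20 and 6.42 in MSI2-inducible arrays, so both MSI2-inducible arrays were below every control array. Its difference was -1.36 (95% limma interval -2.61 to -0.12, unadjusted p 0.0368, adjusted p over all probe sets 0.853). It was the 1 of the 17 probe sets with an unadjusted p under 0.05, where 5.68% of all probe sets had one. No single direction for Hoxb3 can be read from these arrays.

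Among the partners, Meis1, which stabilises Hox binding and sustains stem cells, did not separate the groups in its leading probe set. It read 8.79, 9.65 and 9.40 in control and 9.02 and 9.45 in MSI2-inducible arrays, a difference of -0.05 (95% limma interval -0.80 to 0.70, adjusted p 0.994). Both MSI2-inducible values lay within the control range. A second Meis1 probe set differed by -0.15. The third read 8.28, 8.77 and 8.53 in control and 7.77 and 8.16 in MSI2-inducible arrays, below every control array, with a difference of -0.56 (95% limma interval -1.15 to 0.02, adjusted p over all probe sets 0.872).

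Pbx3, a further DNA-binding partner, had the largest control spread of the leading probe sets (SD 0.83, n = 3), wider than that of 93.3% of 1790 genes of like level. It read 7.08, 5.71 and 7.20 in control and 7.10 and 6.24 in MSI2-inducible arrays. Control replicate 2 was the lowest array and MSI2-inducible replicate 2 the next. The difference was 0.0046 (95% limma interval -1.27 to 1.28, adjusted p 1.0), and it was -0.47 without control replicate 2 and -0.42 without MSI2-inducible replicate 1. The second Pbx3 probe set read 6.11, 4.19 and 5.87 in control and 3.23 and 4.39 in MSI2-inducible arrays. Both probe sets were thus low in control replicate 2. The second differed by -1.58 (95% limma interval -3.25 to 0.09, adjusted p over all probe sets 0.872) and had a mean of 4.76, a weak signal at which the size of a difference is uncertain.

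**Figure D2:**
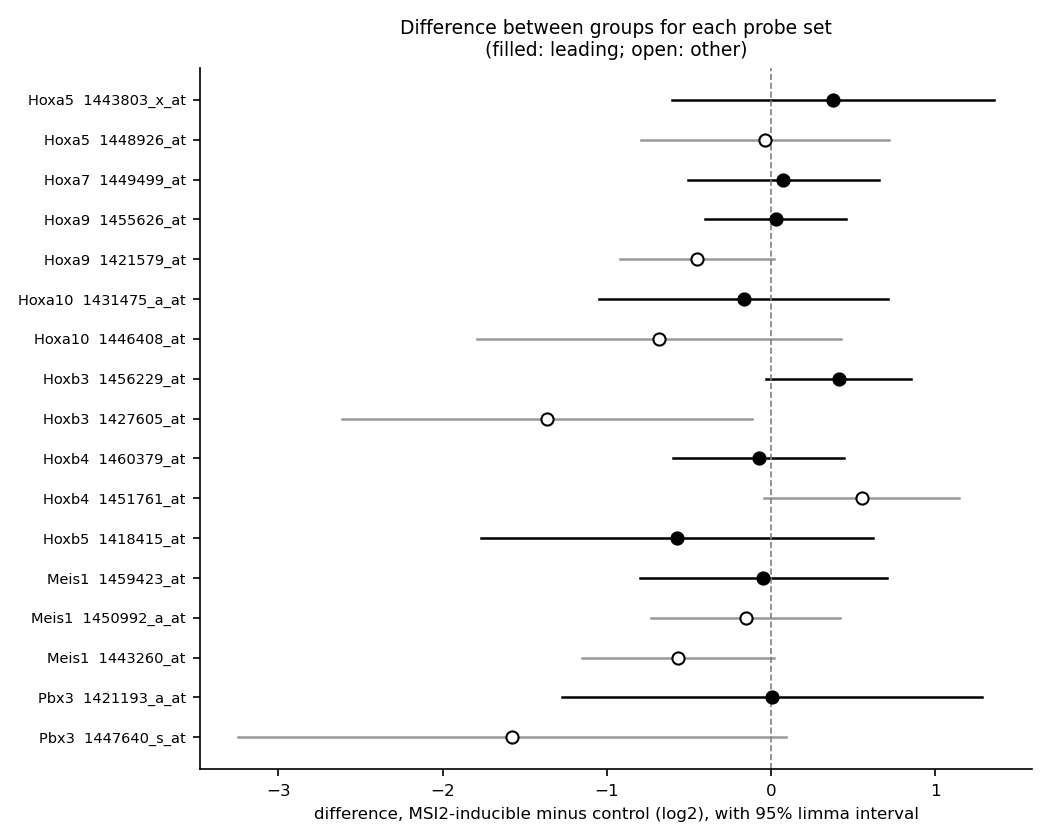
Difference between MSI2-inducible and control arrays (horizontal axis, log2) for each of the 17 probe sets, with 95% limma intervals. Filled points are leading probe sets and open points the others. The leading probe sets gather around 0, and 7 of the 8 other probe sets lie below it.

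The probe sets that do not lead were lower in MSI2-inducible cells in 7 of 8 cases, with a median difference of -0.51. Over all genes 49.7% of 16752 such probe sets were lower, with a median of 0.0021. None of the 17 probe sets passed the test over all probe sets, where 0.00444% did, and the lowest limma adjusted p was 0.853. The groups did not overlap in 5 of the 17 (29.4%, against 18.9% of all probe sets), 2 of them higher (9.26% of all) and 3 lower (9.66% of all) in MSI2-inducible cells. With the mean of all probe sets of a gene as its value, the median difference of the 9 genes was -0.26, and Hoxa9, Hoxb3, Hoxb4 and Pbx3 turned direction (-0.21, -0.48, 0.24 and -0.79). None passed the test in that setting either.

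Probe sets of a gene can be compared within each array. The amount of the gene's RNA cancels only if both read the same transcripts and respond to them alike. Some pairs differed much in level, such as that of Hoxa9 with means of 11.53 and 8.76. Whether the probe sets of a pair responded alike was not tested, so a shift need not mean different transcripts. The difference between probe sets separated the groups in 5 of 9 pairs, in 5 of the 7 genes with a pair, whereas over all genes 21.8% of 30372 pairs did and 38.4% of 9010 genes had such a pair. This comparison was chosen after the values were seen. For Hoxa9 the leading minus the second probe set was 2.69, 2.60 and 2.44 in control and 3.10 and 3.01 in MSI2-inducible arrays, a shift of 0.48 (0.41 to 0.53 with any 1 array left out). The control SD of this within-array difference was 0.12 (n = 3). For Hoxb4 the same quantity was 2.87, 2.81 and 2.90 against 2.40 and 2.07, a shift of -0.63 (-0.79 to -0.46) in the opposite direction. For Meis1 the leading minus the third probe set shifted by 0.52 (0.39 to 0.58).

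For Hoxb3 the shift was 1.78 (1.01 to 2.54) and for Pbx3 1.58 (0.57 to 2.59), and in both MSI2-inducible replicate 1 lay farthest out. Without that array they were 1.01 and 0.57. Hoxa5 and Hoxa10 did not separate the groups, nor did the other Meis1 pairs. The exact two-sided permutation p was 0.1 for each of the 5 pairs, the smallest that 10 splits of 3 against 2 arrays allow, and 0.18 adjusted over the 9 pairs. The positions of the probe sets on the transcripts were not analysed here. The 3' minus 5' signal of the Gapdh control probes was 2.14, 2.60 and 2.40 in control and 2.22 and 2.22 in MSI2-inducible arrays, inside the control range. It covers a single control transcript in linearly amplified RNA and is not a measure of degradation alone. The part of RNA quality in the shifts was not tested.

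**Figure D3:**
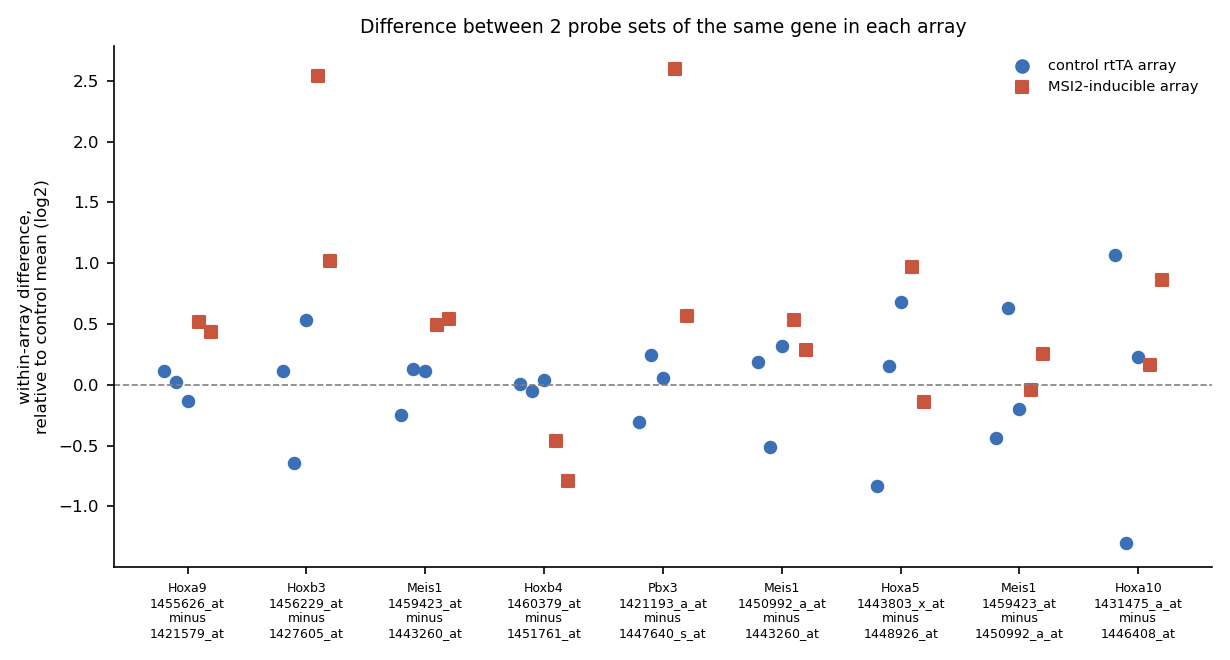
Log2 difference between probe sets of 1 gene within each array, set to a control mean of 0 (vertical axis), for the 9 pairs (horizontal axis); blue circles are control and red squares MSI2-inducible arrays. In the 5 pairs on the left, the red squares lie beyond every blue circle, upward for Hoxa9, Hoxb3, Meis1 and Pbx3 and downward for Hoxb4.

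Across arrays the 9 genes did not move as a block. Their median deviation from the control mean was 0.06, -0.05 and 0.12 in control replicates 1, 2 and 3 and -0.05 and 0.16 in MSI2-inducible replicates 1 and 2. The MSI2-inducible values thus lay near or within the spread of single control arrays. Among the 9 leading probe sets MSI2-inducible replicate 1 was the lowest array for 2 and replicate 2 for 0, and control replicates 1, 2 and 3 were lowest for 3, 1 and 3. Over all 17 probe sets the counts were 8 and 0 for the MSI2-inducible and 4, 2 and 3 for the control arrays. The same counts were not made over all probe sets of the array, and MSI2-inducible replicate 1 stood apart on the first principal component. The counts therefore do not set the 9 genes apart from others.

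Of the genes whose pattern over the 5 arrays was nearest, by root mean square difference after centring, Msl2, Ncstn and Eif3a came closest to Hoxa9 (0.0155, 0.0168 and 0.021 log2 units), among 10109 genes above the median of all probe sets. Hoxa9 itself varied by only 0.09 on that scale, so many genes lay close. For Meis1 they were Gpr146 (0.05), Scly (0.06) and Pigh (0.06), and for Hoxb5, the gene with the widest range, Lockd (0.07), Ttf1 (0.11) and Cnnm4 (0.14). No other of the 9 genes was among the nearest. Hoxa10 ranked 263 from Hoxb5, at 0.36, and Hoxa9 ranked 1189 from Meis1, at 0.27.

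The remaining Hox genes mostly gave low signals. Of 26 measured, 25 had a mean below that median, between 1.88 and 5.45, and 13 were higher and 13 lower in MSI2-inducible cells, with a median difference of 0.0011. The exception was Hoxa3, named after its values were seen, with 9.41 in control and 9.46 in MSI2-inducible arrays. None passed the test, and 1 of 26, Hoxa2 (difference 0.15), had groups that did not overlap, which is 3.85% against 18.7% of all genes. The smallest unadjusted p were those of Hoxb9 (-0.34), Hoxc4 (-0.50), Hoxd3 (-0.38), Hoxa11 (-0.23), Hoxc5 (0.21), Hoxb2 (0.20), Hoxd10 (0.27) and Hoxa2, with limma adjusted p from 0.916 to 0.947. At such signals a small change would not be detectable. The leading probe sets of the 9 genes described here all had means above it, but they were chosen with earlier results known.

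Of the other TALE genes 9 were measured, and 7 were higher and 2 lower, with a median of 0.09, and none passed the test (0.022% of all genes did) or separated the groups (18.7% of all genes did). Pbx2, the broadly expressed Pbx gene, read 10.18, 10.17 and 9.93 in control and 10.11 and 10.43 in MSI2-inducible arrays, a difference of 0.18. Pbx4 differed by 0.32 and Pknox1 (Prep1), a Meis relative that pairs with Pbx, by 0.49, the largest of the list (limma adjusted p 0.927). With the mean of all its probe sets the Pknox1 difference was 0.15. The Meis relatives Meis2 (0.01), Meis3 (0.07) and Pknox2 (0.09) had means below 5.57. The repressors Tgif1 (0.17) and Tgif2 (-0.13) and the Pbx-binding protein gene Pbxip1 (-0.28) showed no separation. Without MSI2-inducible replicate 1 Tgif1 was at -0.51.

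Genes that act on the Hox clusters gave 18 higher and 17 lower of 35 measured, with a median difference of 0.0008 and none past the test. The groups did not overlap for 6 (17.1%, against 18.7% of all genes). The smallest unadjusted p belonged to Mllt1 (ENL), an MLL fusion partner (0.66), the H3K27 demethylase gene Kdm6b (0.37), the nucleoporin and fusion gene Nup98 (-0.45) and the Polycomb methyltransferase gene Ezh1 (-0.83), all with a limma adjusted p of 0.911. Kdm6b read 8.89, 8.72 and 8.57 in control and 9.11 and 9.09 in MSI2-inducible arrays, both above the controls. That probe set carries the suffix _x_at. The Kdm6b probe set that leads without such sets differed by 2.04, and with the mean of all probe sets the Kdm6b difference was 0.81 and the Mllt1 difference 0.34. The mean of all Ezh1 probe sets differed by 0.05. The leading Ezh1 probe set read 7.78, 8.42 and 8.46 in control and 6.79 and 7.98 in MSI2-inducible arrays, and replicate 2 was within the control range.

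Genes tied to Hoxa9 and Meis1 activity gave 11 higher and 13 lower of 24 measured, with a median of -0.05. None passed over all genes, and 1 reached an unadjusted limma p under 0.05, lower in MSI2-inducible cells (2.77% of all genes). That was Mecom (Evi1), a stem cell regulator, which read 9.84, 9.88 and 9.98 in control and 9.13 and 9.52 in MSI2-inducible arrays, a difference of -0.58 (adjusted p 0.870). The mean of its 3 probe sets differed by 0.01, but those besides the leading one were weak, with means of 4.81 and 2.27 against 9.67. These weak sets differed by 0.54 and 0.07, and the size of a difference is uncertain at such signals. Gfi1 (-0.43), a repressor that opposes Hoxa9 in myeloid cells, and the cell cycle kinase gene Cdk6 (-0.38) were below, and Id2 (0.62) above, every control array in both MSI2-inducible arrays. For Cdk6 the margin was small, 11.22 in MSI2-inducible replicate 2 against 11.24 in control replicate 2. Its other probe sets, with means of 11.11 and 10.33, differed by -0.14 and -0.11. Those of Id2, with means of 5.39 and 3.19, differed by 0.0035 and 0.59. The groups did not overlap for 6 of 24 (25.0%, against 18.7% of all genes). The list's median deviation was -0.30 in MSI2-inducible replicate 1 and 0.06 in replicate 2.

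**Figure D4:**
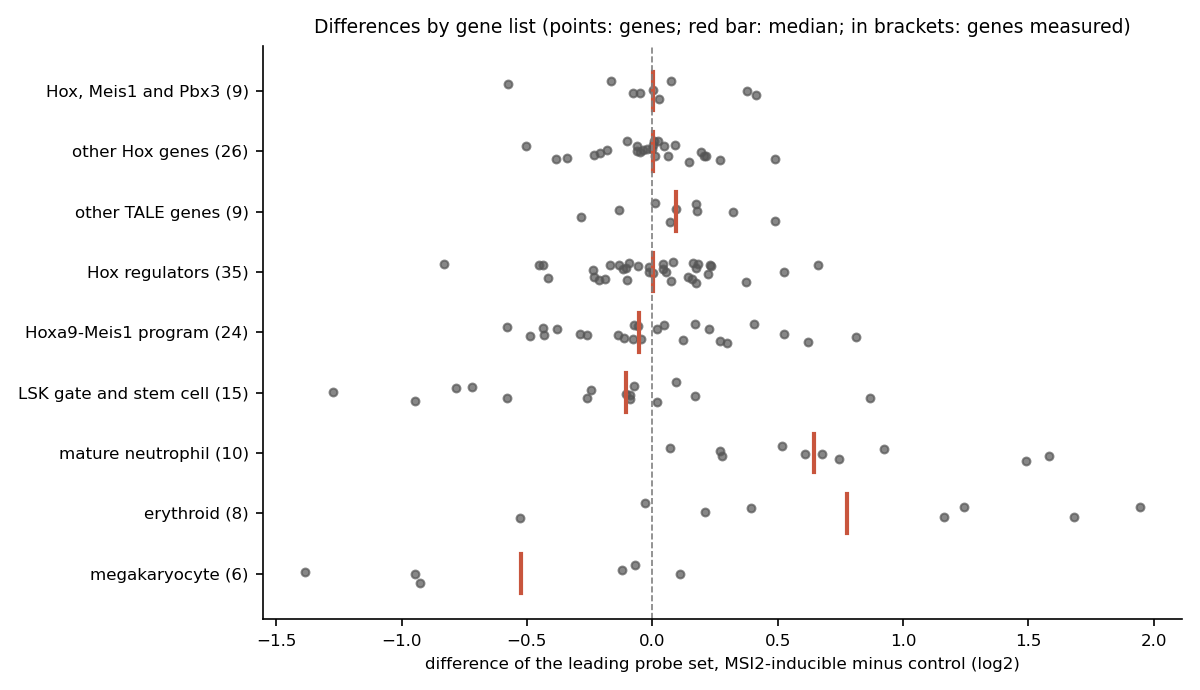
Difference between MSI2-inducible and control arrays of the leading probe set (horizontal axis, log2) for each gene of 9 lists (vertical axis); points are genes, red bars list medians, and the number of genes measured is in brackets. The Hox, Meis1 and Pbx3 genes spread from -0.57 to 0.41 around a median of 0.0046, while mature neutrophil genes have a median of 0.64, which is -1.04 without MSI2-inducible replicate 1.

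Markers of other blood cells differed widely between single arrays. All 10 measured mature neutrophil genes were higher in MSI2-inducible cells on average (median 0.64), but the median was -1.04 without MSI2-inducible replicate 1 and 2.23 without replicate 2. Their summed linear signal was 63583 in MSI2-inducible replicate 1 and 11802 in replicate 2, against 14303 to 26847 in control arrays. Those with the smallest p were Cxcr2 (1.49), Mmp9 (1.58), Mmp8 (0.68) and Lcn2 (0.92), with limma adjusted p from 0.911 to 0.963. Erythroid genes (6 higher, 2 lower of 8) summed to 6838 and 3093 against 1831 to 3156, with Epor (1.16), Car1 (1.24), Klf1 (1.68) and Gata1 (-0.53). Megakaryocyte genes (1 higher, 5 lower of 6) summed to 859 and 1082 against 1570 to 1928, with Vwf (-0.95), Pf4 (-1.38), Ppbp (-0.93) and Gp9 (0.11). None of these genes passed the test over all genes.

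Macrophage genes gave 8 higher and 1 lower of 9, summing to 12146 and 5745 against 5853 to 6889, with Ccr2 (1.67), C1qb (-0.86), C1qa (0.71) and Lyz2 (0.45). B cell genes gave 4 higher and 3 lower of 7, summing to 1023 and 746 against 324 to 652, with Vpreb1 (2.22), Cd79a (1.07), Pax5 (0.39) and Cd79b (0.20). T and NK genes gave 3 higher and 3 lower of 6, summing to 783 and 642 against 580 to 1105, with Ccl5 (1.56), Nkg7 (-0.36), Cd3g (0.18) and Cd3e (-0.17). Endothelial and stromal genes gave 3 higher and 5 lower of 8, summing to 348 and 581 against 763 to 1014, with Cxcl12 (-2.16), Emcn (-0.71), Lepr (-0.31) and Pecam1 (-0.80). No gene of these 4 lists passed the test. The part of these markers in the Hox values was not tested. Without MSI2-inducible replicate 1, the array with the highest neutrophil, macrophage and erythroid signal, the median difference of the 9 Hox, Meis1 and Pbx3 genes was 0.16, and without replicate 2 it was -0.05.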

How the data were processed

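RNA of 5 samples, amplified linearly and labelled with biotin per the labels' protocols, was measured on Affymetrix whole-genome mouse arrays. The authors deposited probe set intensities on a linear scale. The submitters' processing notes name RMA, affy and R 2.11.0. How RMA's log values were turned back to a linear scale is not stated there. RMA pulls arrays to a common distribution, so a shift of all genes would not show. Array medians were 46.4 to 48.3 intensity units. The log2 of the deposited intensity was taken with no pseudocount, no filter and no further normalization.

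Gene names came from the platform annotation, with symbols updated by Entrez ID through a GRCm38.p6 gene table. Of 45101 probe sets, 64 were controls, 34945 had 1 symbol (34741 matched the table), 932 had several and the others were unnamed here. The comparison used limma 3.58.1 under R 4.3.3, with lmFit on group alone and eBayes without trend or robust options, two-sided, with a threshold of 0.05 after Benjamini-Hochberg adjustment. The number of arrays limits the precision.

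The 9 genes and the gene lists were chosen with earlier results of these data known. Named were all 9 genes, all TALE genes, 8 other Hox genes and 4 genes of each other list with the smallest p, Kit as a gate marker, and the 3 nearest patterns to Hoxa9, Meis1 and the gene of widest range. The gate list's Ctnnal1 (difference 0.87) and the lineage list's Il7r (0.31), Cd3e (-0.17) and Ms4a1 (-0.13) also fell under this rule. The gene test was run on simulated data with independent normal noise for each gene and array. Such data hold no shift shared by the genes of an array, so the run does not cover an array that stands apart. Alternatives covered the gene value, low values, an offset of 16, normalization, the variance model, weights per array, a block for the replicate number, leaving out single arrays, and a threshold of 0.10. Figures were drawn with matplotlib 3.10.9.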

Additional observations from a re-analysis of the deposited data

How the results depend on the processing

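No call of the 9 genes depended on the processing: in 135 alternative values none passed, and 26 turned direction. Many of the 135 could not turn, so the 26 do not measure how steady the directions are. Settings that changed only the variance model, the features tested or the threshold kept each difference. Genes with 1 probe set kept theirs where only the choice of probe sets changed. The replicate block gave the same differences as leaving out control replicate 3. Over all genes 3 were higher and 1 lower. Genes higher numbered 1 when probe sets were tested singly, with log2 of intensity plus 16 and with array weights. Genes lower numbered 0 when probe sets were tested singly or the offset was used, 2 with low values left out or after a further quantile normalization, and 3 at a threshold of 0.10. With any 1 array left out, 0 to 0 genes were higher and 0 to 0 lower in limma, where 1026 had an unadjusted p under 0.05 with all arrays. A lone MSI2-inducible array was given the spread of the control arrays.

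The replicate number as a block gave 0 genes higher and 0 lower. The labels give no ground for its 2 pairs, whose deviations correlated at 0.134 and 0.0990. With the block, control replicate 3 drops out and Hoxa7 (-0.0614), Hoxa9 (-0.0202), Hoxb4 (0.0702), Meis1 (0.012) and Meis2 (-0.0122) turned direction.

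The median difference of the 9 genes was 0.0046, and -0.26 with the mean of all probe sets and -0.04 without _x_at probe sets. Left-out arrays gave -0.0482 to 0.16. With the mean of all probe sets, Hoxa9 (-0.21), Hoxb3 (-0.48), Hoxb4 (0.24), Pbx3 (-0.79), Meis2 (-0.15), Tgif2 (0.13), Ezh1 (0.0496) and Mecom (0.0105) turned direction. Without _x_at probe sets Hoxa5 (-0.0354), Meis2 (-0.39) and C1qb (0.0164) did, with the offset Pbx3 (-0.0089), and with array weights Meis1 (0.038) and Pbx3 (-0.23). Left-out arrays turned Hoxa5 (-0.0015 to 0.59), Hoxa7 (-0.066 to 0.24), Hoxa9 (-0.0482 to 0.10), Hoxa10 (-0.57 to 0.24), Hoxb4 (-0.18 to 0.0702), Hoxb5 (-1.30 to 0.16), Meis1 (-0.30 to 0.17) and Pbx3 (-0.47 to 0.43). Of the other genes they turned Meis2 (-0.0389 to 0.0612), Meis3 (-0.0465 to 0.15), Pknox2 (-0.20 to 0.38), Tgif1 (-0.51 to 0.86), Pbxip1 (-0.67 to 0.11), Mmp9 (-0.0453 to 3.21), Mmp8 (-0.44 to 1.79), Lcn2 (-1.34 to 3.19), Lyz2 (-0.12 to 1.02), Cd79a (-0.0542 to 2.20), Cd79b (-0.22 to 0.62), Hoxd3 (-0.81 to 0.0437) and Gp9 (-0.0028 to 0.22). None of these passed the test, and the cause was not tested. The shift between probe sets kept its direction in Hoxa9, Hoxb3, Hoxb4, Pbx3 and the Meis1 pair with separate groups under each alternative run. Where the groups are separate, leaving out 1 array cannot turn the direction. Only the offset and the further quantile normalization could have done so, and both use the same arrays. With the offset the shift was 0.96 for Pbx3, whose second probe set is weak, and -0.51 for Hoxb4, whose second probe set is near the median.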
